A study of Mus musculus with 2 samples.

Results

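The 10 genes described here, Cited1, Elf5, Gata3, Foxa1, Tbx3, Trp63, Ehf, Grhl2, Esrp1 and Elf3, encode regulators that mark or shape the epithelium of the mammary gland. The genes and the comparison lists below were chosen with earlier results of these data known, and their rows were found by gene symbol. All 10 had a row among the 21113 genes of each deposited table. The study compared the mammary gland of mice homozygous for the ILN allele (Mir212/132ILN/ILN), in which an IRES-LacZ-Neo cassette sits at the genes of miR-212 and miR-132, a pair of microRNAs, with that of wild-type (WT) mice. Both groups were of strain C57BL/6 at postnatal week 6, and each gave 1 library of polyadenylated RNA. The labels do not state how many animals or glands went into a library, and they name the mammary gland as the tissue, with no sorting of cells. With 1 library per genotype no difference below has a replicate check, and no test between genotypes was made.

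The mammary gland of a pubertal mouse is a tree of epithelial ducts in a pad of fat. The ducts have an inner luminal layer, made of hormone-sensing cells and of progenitors of milk-secreting cells, and an outer basal layer. GATA3 and FOXA1 act with the oestrogen receptor in hormone-sensing luminal cells, ELF5 directs the secretory lineage, and p63 maintains basal cells. GRHL2 and ESRP1 keep cells epithelial, the first by activating genes of cell junctions and the second by directing the splicing of transcripts, so ESRP1 is a splicing regulator and not a transcription factor.

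The microRNAs of the targeted locus are shown because the share of regulators that carry a match to them is described below. Their mature 3p forms are written 5′ to 3′ as RefSeq gives them on the plus strand of chromosome 11 of GRCm38.p6, with the seed, bases 2 to 8, in capitals.
mmu-miR-212-3p: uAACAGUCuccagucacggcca
mmu-miR-132-3p: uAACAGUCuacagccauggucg
The seed was the same in both. Its perfect match was searched in the longest 3′ untranslated region that GENCODE M21 gives each gene. Of the 10 regulators, 4 held 1 match each. The share was 11.6% of the 18133 searched genes of the table. It was 9.1% of the 15100 whose region lay within the length range of the regulators, 79 to 3342 bases. That range is wide, so the comparison is not matched for length. The matches, in capitals with 9 bases on each side, were as follows.
Gata3: cacctggctGACTGTTagcccctgt
Foxa1: agttcaaagGACTGTTactttatta
Grhl2: acctctcaaGACTGTTacaagactg
Esrp1: tggtatggtGACTGTTatggtaact
A match is a run of letters and does not show that a microRNA binds there. The untranslated regions of the 10 genes ran from 79 bases in Cited1 to 3342 in Ehf. All 4 genes with a match were lower by 2-fold or more in ILN/ILN, as were 3 of the 6 without one. The share lower among all genes with a match was not computed, and a link between match and level was not tested.

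In the ILN/ILN library 7 of the 10 regulators were at least 2-fold lower than in the WT library, and none was 2-fold higher. These were Cited1, Foxa1, Elf5, Grhl2, Esrp1, Gata3 and Elf3. All 7 were also past 4-fold, and 3 of the 10, Foxa1, Elf5 and Elf3, had 0 fragments in ILN/ILN. Tbx3, Trp63 and Ehf lay within 2-fold. The values compared are fragments, the whole-number counts behind the deposited signal, scaled by each library's total of 42953129 fragments in ILN/ILN and 46133338 in WT. Intervals in parentheses are exact conditional 95% intervals for counting error alone, and they leave out any difference between animals or dissections. Of 14101 genes with at least 20 fragments summed over both libraries, 6.28% were at least 2-fold lower in ILN/ILN and 1.65% at least 2-fold higher. Among the 5056 genes with a sum as low as those of the regulators, from 19 to 672, the shares were 15.4% lower and 4.13% higher. At 4-fold the shares lower were 2.21% and 5.83%, and 0.949% of the genes with sums like those of the regulators had 0 fragments in ILN/ILN. The median log2 ratio was -2.89 for the 10 regulators, with the 3 genes at 0 set to 3 fragments. It was 0.00 for all genes with at least 20 fragments and -0.13 for the genes with sums like those of the regulators. Of the 10, 9 reached 20 summed fragments, and Elf3 with 19 did not.

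**Figure D1:**
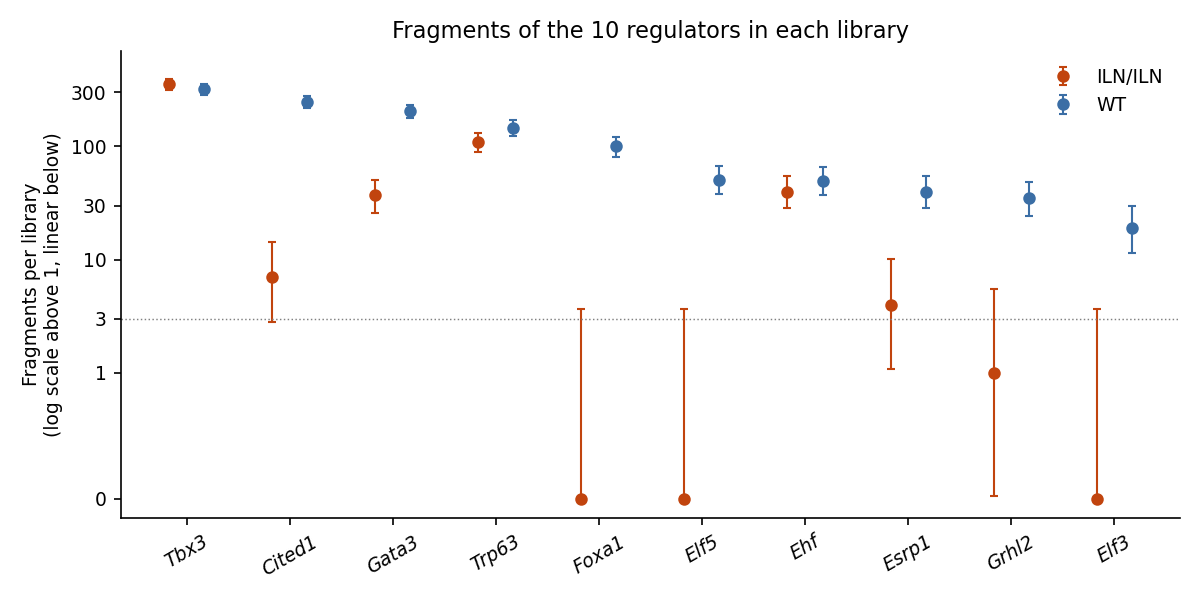
Fragments of each regulator (log scale above 1, linear below) in the ILN/ILN library (left point of each pair) and the WT library (right point), with exact 95% Poisson intervals for counting error and a dotted line at 3 fragments. Foxa1, Elf5 and Elf3 are at 0 in ILN/ILN, while Tbx3, Trp63 and Ehf have overlapping intervals in both libraries.

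The hormone-sensing regulators Cited1, Foxa1 and Gata3 were all lower in ILN/ILN, by different amounts. Cited1, a coregulator without a DNA-binding domain that works with the oestrogen receptor, had 7 fragments in ILN/ILN and 248 in WT. This is 33.0-fold lower (15.8 to 82.9). Foxa1, a forkhead factor that opens chromatin for the oestrogen receptor, had 0 fragments in ILN/ILN and 100 in WT, at least 31.0-fold lower when the 0 is replaced by 3 fragments, the limit used here for every 0. Gata3, a zinc finger factor needed for luminal cells, had 37 fragments in ILN/ILN and 204 in WT, 5.13-fold lower (3.60 to 7.50). The interval of Gata3 did not overlap that of Cited1. Gata3 was thus still counted in the ILN/ILN library, where Foxa1 was not detectable at this depth.

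T helper cells use GATA3 too, and the T cell genes of the gland were also lower in ILN/ILN. On the list of 15 T cell genes, 14 were lower by 2-fold or more, the median log2 ratio was -1.49, and none was at 0. Their fragments summed to 3080 in ILN/ILN and 9679 in WT. Among the most abundant of them, Tcf7 was 3.93-fold lower (3.50 to 4.43) and Cd4 was 3.39-fold lower (3.03 to 3.80). The part of T cells in the Gata3 value was not tested. GENCODE places the protein-coding gene 4930412O13Rik over Gata3 on the opposite strand, and it had 0 fragments in ILN/ILN and 2 in WT. Other genes on the opposite strand overlap Gata3, Tbx3, Trp63, Grhl2, Esrp1 and Elf3 in that annotation, and 9230102O04Rik and the pseudogene Gm27005 overlap Gata3 and Trp63 on the same strand. Since the use of strand in counting is not stated, reads of these partners cannot be told apart from those of the regulators.

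Tbx3, a T-box repressor needed for the mammary bud to form, was not lower. It had 353 fragments in ILN/ILN and 319 in WT, a ratio of 1.19 (1.02 to 1.39). Its deposited FPKM-like values were further apart, at 9.21 in ILN/ILN and 4.93 in WT, a ratio of 1.87. Those values came from a derived estimate over isoforms, at 416 per kilobase in ILN/ILN and 239 in WT, and not from the original estimate of 72.4 in ILN/ILN and 65.4 in WT. The fragments therefore do not show the difference that the deposited values show. Tbx3 was the single regulator for which the deposited value came from the derived estimate.

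A pair of promoters is shown, for the regulators that had the most fragments in WT among those with under 10 in ILN/ILN and an entry in the table of RefSeq starts. Each runs from 250 bases before to 50 bases after the start on the minus strand of GRCm38.p6. Cited1 is at chrX:102252132-102252431 and is the first of 3 starts listed, and Foxa1 is at chr12:57546062-57546361. Capitals mark matches on either strand to the forkhead motif GTAAACA, the ETS motif AGGAAG and the TATA motif TATAAA.
Cited1: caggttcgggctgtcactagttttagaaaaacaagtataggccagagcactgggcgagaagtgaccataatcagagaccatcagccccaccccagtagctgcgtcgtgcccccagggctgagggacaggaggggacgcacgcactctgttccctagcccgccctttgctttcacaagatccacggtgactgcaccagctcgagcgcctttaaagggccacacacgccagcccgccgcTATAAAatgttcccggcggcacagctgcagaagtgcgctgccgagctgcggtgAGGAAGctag
Foxa1: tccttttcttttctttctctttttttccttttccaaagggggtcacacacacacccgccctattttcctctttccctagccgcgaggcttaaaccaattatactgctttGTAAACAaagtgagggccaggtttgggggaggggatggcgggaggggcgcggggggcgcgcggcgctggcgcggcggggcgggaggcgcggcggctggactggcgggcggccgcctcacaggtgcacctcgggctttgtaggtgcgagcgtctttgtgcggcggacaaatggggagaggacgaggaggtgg
The forkhead motif stood in 3.65% of the 32851 promoters of that table, the ETS motif in 35.4% and the TATA motif in 13.6%. Promoters of Elf5, Gata3 and Elf3 were also listed and held none of these, nor the GATA motif AGATAA (11.2% of all promoters) or the grainyhead motif AACCNNGTT (1.84%), which were absent from Cited1 and Foxa1 as well. The searched motifs do not overlap one another in the printed windows. Such matches describe letters, and nothing about binding follows from them.

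Elf5, Elf3 and Ehf encode the epithelium-specific branch of the ETS family of transcription factors, and they did not move alike. Elf5, the regulator of the secretory lineage, had 0 fragments in ILN/ILN and 51 in WT, at least 15.8-fold lower. Elf3, found in many simple epithelia, had 0 fragments in ILN/ILN and 19 in WT, 5.90-fold lower with the 0 set to 3 fragments. Ehf had 40 fragments in ILN/ILN and 50 in WT, a ratio of 0.859 (0.552 to 1.33). Ehf thus had about as many fragments as Elf5 in WT, and in ILN/ILN it was counted where Elf5 and Elf3 were not. The more widely expressed relatives lay close to equality. Elf1 had 919 fragments in ILN/ILN and 1044 in WT, and Elf2 had 1673 in ILN/ILN and 1746 in WT. Elf4, used in blood cells among others, had 1534 fragments in ILN/ILN and 2044 in WT, 1.24-fold lower (1.16 to 1.33).

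**Figure D2:**
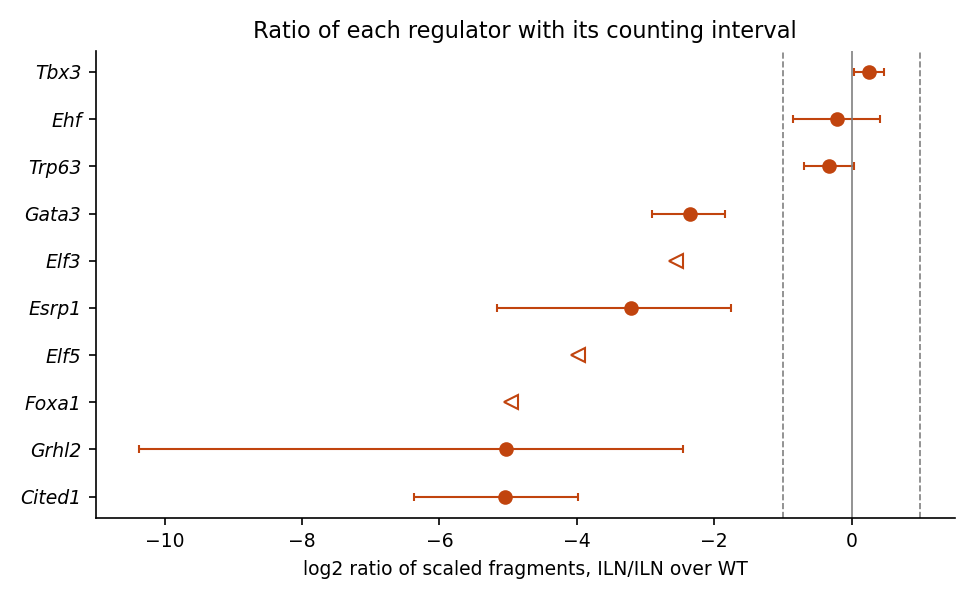
Log2 ratio of scaled fragments, ILN/ILN over WT, for each regulator, with exact conditional 95% intervals for counting error; open triangles are upper limits for genes with 0 fragments in ILN/ILN, and dashed lines mark 2-fold. The ratios run from -5.04 for Cited1 to 0.25 for Tbx3, with a gap between -2.36 for Gata3 and -0.33 for Trp63.

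The regulators that keep cells epithelial were both lower. Grhl2, a grainyhead factor that activates cell adhesion genes, had 1 fragment in ILN/ILN and 35 in WT, 32.6-fold lower with a wide interval (5.48 to 1323). Esrp1 had 4 fragments in ILN/ILN and 40 in WT, 9.31-fold lower (3.37 to 35.8). Its partner Esrp2, which shares many splicing targets, had 6 fragments in ILN/ILN and 30 in WT, 4.66-fold lower (1.91 to 13.7). Grhl1, the grainyhead relative used in the epidermis, had 167 fragments in ILN/ILN and 201 in WT, a ratio of 0.892 (0.722 to 1.10), and Grhl3 had 0 in both. Of 8 transcription factor genes of mesenchymal cells, some of which repress epithelial genes, none was 2-fold apart, and their median log2 ratio was 0.23. Zeb1 had 2623 fragments in ILN/ILN and 2138 in WT, 1.32-fold higher (1.244 to 1.396), and Zeb2 had 3238 in ILN/ILN and 2750 in WT, 1.26-fold higher (1.20 to 1.33).

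Trp63 encodes p63, the factor of basal cells in the gland and in other layered epithelia, and it was not lower by 2-fold. It had 109 fragments in ILN/ILN and 147 in WT, a ratio of 0.796 (0.616 to 1.03). The basal keratin genes Krt5, Krt14 and Krt17 had 0 fragments in ILN/ILN, against 78, 62 and 59 in WT. Basal keratins were thus at 0 in the same library in which Trp63 was counted. The deposited data list 8 isoforms for Trp63 and none of them as measured. Its deposited length was 866 bases, the shortest of the 10 regulators and below the 3067 bases of its longest 3′ untranslated region. That length thus covered only part of the transcript, and the fragments may do so too. Which p63 isoforms these fragments come from was not resolved. Trp53, its widely expressed relative, had 2119 fragments in ILN/ILN and 2874 in WT, and Trp73 had 0 in ILN/ILN and 3 in WT. Of the wider list of 14 basal and myoepithelial genes, 4 were at least 2-fold lower, and the rest, such as Acta2 with 3343 fragments in ILN/ILN and 4677 in WT, are also genes of vessel muscle or of other cells in part.

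The order of the regulators by level differed between the libraries. Levels are given as fragments per kilobase of the deposited length of each gene and per 1000000 fragments of the library. For Trp63 that length, 866 bases, covered only part of the transcript, and its rank rests on it. In ILN/ILN Trp63 came first at 2.93 (2.41 to 3.53), then Tbx3 at 1.69 (1.51 to 1.87), then Gata3 at 0.271 (0.191 to 0.373), Ehf at 0.216 (0.154 to 0.294) and Cited1 at 0.178 (0.0717 to 0.367). In WT Cited1 came first at 5.88 (5.17 to 6.66), followed by Trp63 at 3.68 (3.11 to 4.32), Tbx3 at 1.42 (1.27 to 1.58) and Gata3 at 1.39 (1.21 to 1.59). Intervals of level, for counting error, overlapped for Gata3, Ehf and Cited1 in ILN/ILN and for Tbx3 and Gata3 in WT. In WT the lower levels were 0.696 for Foxa1 and 0.547 for Elf5, whose intervals overlapped, and 0.251 for Ehf, 0.229 for Elf3, 0.229 for Esrp1 and 0.156 for Grhl2, where each interval overlapped the next. In ILN/ILN Esrp1 was at 0.0246 and Grhl2 at 0.00477, and the genes at 0 had exact upper 95% limits of level of 0.0276 for Foxa1, 0.0425 for Elf5 and 0.0478 for Elf3. Tbx3, Trp63 and Ehf together held 91.1% of all regulator fragments in ILN/ILN and 42.5% in WT. These were 502 of 551 fragments in ILN/ILN and 516 of 1213 in WT. The 3 genes were grouped because they lay within 2-fold, so the change in share restates the lower values of the other 7.

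**Figure D3:**
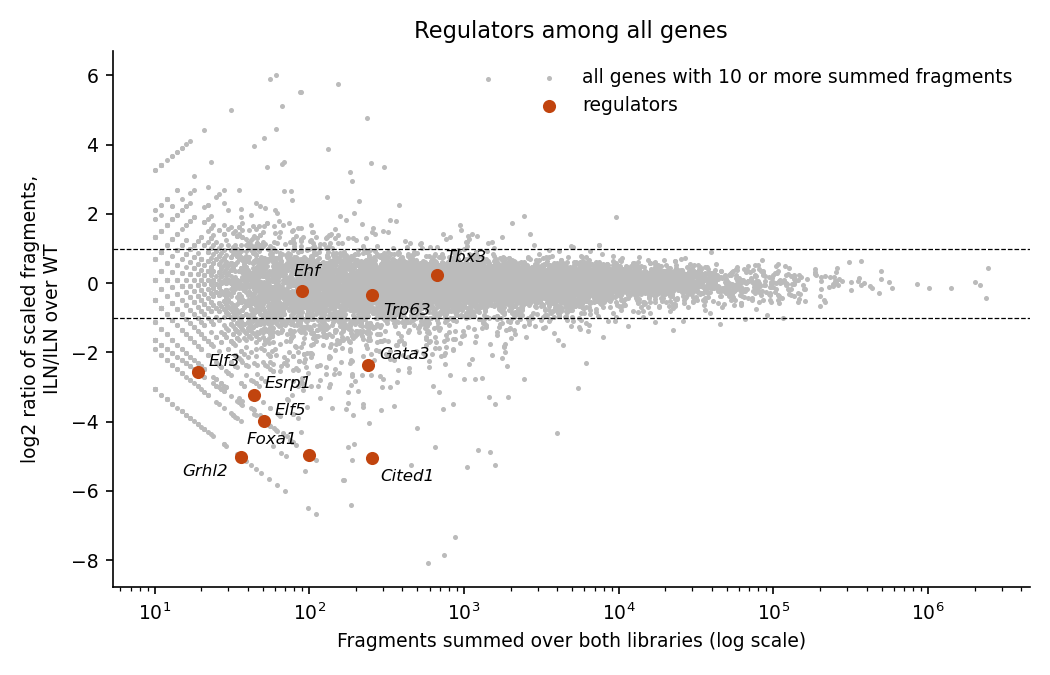
Log2 ratio of scaled fragments, ILN/ILN over WT, against the fragments summed over both libraries (log scale) for all genes with at least 10 fragments (grey) and the regulators (colour), with genes at 0 in a library set to 3 fragments and dashed lines at 2-fold. The 7 lower regulators lie below -2, and Tbx3, Trp63 and Ehf lie between the dashed lines.

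The defining markers of the luminal epithelium were lower in ILN/ILN too. Of 16 genes of luminal structure 14 were lower by 2-fold or more (median log2 ratio -4.70). Fragments of all 16 summed to 369 in ILN/ILN and 3970 in WT, 10.02-fold lower. The other 2 lay within 2-fold. Muc1 had 52 fragments in ILN/ILN and 76 in WT, and Spint1 had 48 in ILN/ILN and 53 in WT. The keratin gene Krt8 had 0 fragments in ILN/ILN and 742 in WT, its partner Krt18 had 2 in ILN/ILN and 583 in WT, and Krt19 had 24 in ILN/ILN and 1029 in WT. The junction genes Epcam and Cdh1 had 5 and 7 fragments in ILN/ILN, against 184 and 189 in WT. The library labelled ILN/ILN thus holds few fragments of the genes that define the epithelial cells in which these regulators are known to act. In a bulk sample, fewer epithelial cells in the dissected tissue and less RNA of these genes per cell cannot be told apart.

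Other genes of the epithelium and its neighbours gave the frame for these values. Of 20 listed further regulators of mammary epithelium, 18 had a row, 15 had over 3 fragments in a library, and 7 of these were lower by 2-fold or more (median log2 ratio -0.64). The most abundant, Lmo4, Stat5a, Stat5b and Nfib, are also used in other cell types and had log2 ratios of 0.23, 0.29, 0.18 and 0.13. Of 24 listed relatives of the regulators, 19 had over 3 fragments in a library, 4 were at least 2-fold lower and 1, Tbx4 with 8 fragments in ILN/ILN and 3 in WT, was higher. Their median log2 ratio was -0.16. Of the hormone-sensing list, 6 of the 8 genes with over 3 fragments were lower by 2-fold or more (median log2 ratio -1.69), but Esr1, the oestrogen receptor gene that stromal cells also express, had 2153 fragments in ILN/ILN and 1835 in WT. Of 9 milk genes, 6 had at most 3 fragments in either library, and 2 of the other 3 were lower by 2-fold or more. Glycam1, which lymph node vessels also express, had 45 fragments in ILN/ILN and 1423 in WT, and Xdh, which many tissues use, had 13519 in ILN/ILN and 15578 in WT.

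Skin keratinocytes use Trp63, Gata3, Grhl2 and Ehf as well, and dissected glands can carry skin. Of 14 skin genes with a row, 9 had over 3 fragments in a library, 6 were at least 2-fold lower and 1 higher, with a median log2 ratio of -1.45. Their fragments summed to 780 in ILN/ILN and 1827 in WT, of which Sbsn alone held 583 in ILN/ILN and 1335 in WT. Of the defining skin genes Krt1, Krt10 and Lor, Krt10 was counted in both libraries, with 51 fragments in ILN/ILN and 60 in WT. Krt1 and Lor had at most 4 fragments in either library. The gene counted as higher was Lor, with 4 in ILN/ILN and 2 in WT. Sfn had 70 in ILN/ILN and 206 in WT, 2.74-fold lower (2.08 to 3.65). Calml3 had 62 in ILN/ILN and 50 in WT. The part of skin in the values of Trp63 and Ehf was not tested.

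The listed genes of fat pad cells differed little. None of 12 fibroblast, 12 white adipocyte and 10 endothelial genes was 2-fold apart, with median log2 ratios of -0.03, 0.12 and 0.26. Adipoq, the adipocyte hormone gene, had 187506 fragments in ILN/ILN and 198871 in WT, so the defining genes of the fat pad were abundant in both libraries. All 10 listed B cell genes were lower by 2-fold or more (median -2.71). The lower values of 7 regulators thus stood beside lower epithelial and lymphoid genes, while the listed fibroblast, white adipocyte and endothelial genes stayed within 2-fold. The part of tissue composition in them was not tested.

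**Figure D4:**
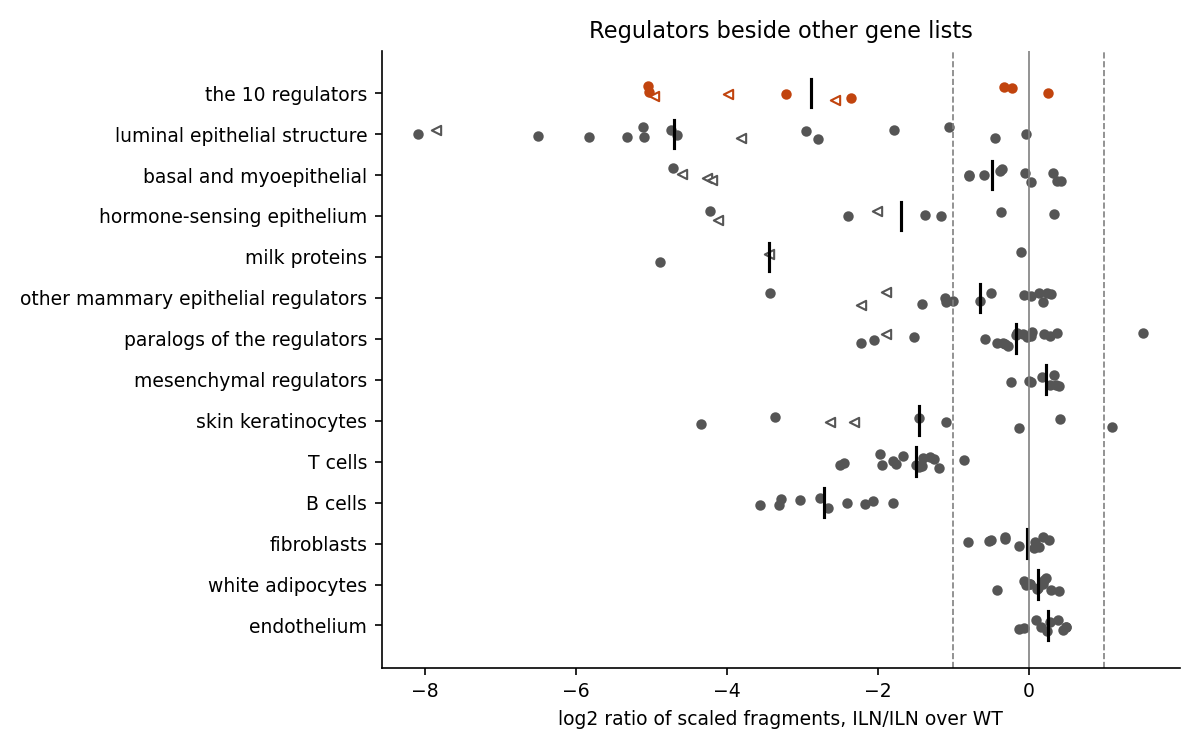
Log2 ratio of scaled fragments, ILN/ILN over WT, for each gene with over 3 fragments in a library, by list. Black bars are list medians, open triangles are genes with 0 fragments in a library, set to 3, and dashed lines mark 2-fold. The medians run from -4.70 for luminal structure to 0.26 for endothelium, with -2.89 for the regulators and -3.44 for the 3 milk genes with a ratio.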

How the data were processed

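Per the labels' protocols, polyadenylated RNA was copied with dUTP strand marking and each library was run on 2 Illumina lanes. Bowtie 0.12.3, TopHat 1.4.1, bedtools and build mm9 appear in the submitters' processing notes, while their roles, the annotation and the use of strand in counting are not given there or in the labels. The authors deposited an FPKM-like value per gene, its log2(value + 1), and per-kilobase signal from an original and a derived estimate, with gene lengths and isoform numbers. Original signal times length was a whole number, within 0.01, in every gene with a length (38 had none), and is called fragments here. Ratios are of fragments scaled by library totals, with exact conditional (Clopper-Pearson) 95% intervals (scipy 1.17.1). A 0 was set to 3 fragments, and such ratios are given without an interval and are not 95% bounds. Intervals cover counting error only and treat fragments as separate molecules. Where sequenced fragments are not separate molecules, the intervals are too narrow. Genes with at most 3 fragments in both libraries got no ratio. No p-value was computed with 1 library per genotype, and likeness of pattern was not ranked. The ratio step was tested on simulated data. Members and lists were chosen with earlier results of these data known. Named were all 10 members, their relatives, defining markers, and up to 4 genes of a list with the most fragments. Tbx4, Muc1 and Spint1 were named after their values were seen. Alternatives covered scaling, deposited values with other pseudocounts, thresholds and minimums. Sequences are from RefSeq (GRCm38.p6) and GENCODE M21. Of the 10 genes, 5 had promoters there (Cited1, Elf5, Gata3, Foxa1, Elf3), and Tbx3, Trp63, Ehf, Grhl2 and Esrp1 were not matched.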

Additional observations from a re-analysis of the deposited data

How the results depend on the processing

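The count of 7 regulators at least 2-fold lower stayed at 7 with the median of gene ratios or the sum without the 100 most abundant genes as scaling, at 1.5-fold and 4-fold, with the whole interval past 2-fold, and with deposited values plus 0.1. It was 1 with deposited values plus 1 and 1 with deposited values plus 5. The median log2 ratio was -0.27 with deposited values plus 1, -1.52 plus 0.1 and -0.094 plus 5, since a pseudocount above most deposited values pulls ratios toward 0. Of the 7 regulators with fragments in both libraries, all had log2 ratios inside their counting intervals with both scalings. With deposited values plus 1, 5 were outside them. Among these was Tbx3, whose deposited value came from the derived estimate, and which moved away from 0, from 0.25 to 0.78. The share of all genes past 2-fold in either direction was 7.94% with at least 20 summed fragments, 4.19% with at least 100, and 19.6% among genes with sums like those of the regulators, a setting chosen after seeing the data. No paired analysis was possible because each genotype has 1 library. Depth limits Elf3, Grhl2 and Esrp1 most, with 19, 36 and 44 fragments over both libraries.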
